A study of Homo sapiens with 9 samples.

Results

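GDF15 (growth differentiation factor 15) was compared with 9 other ligand genes of the TGF-beta superfamily, GDF11, INHBA, INHBB, TGFB1, TGFB2, TGFB3, BMP2, BMP4 and BMP7, to see whether its fall after knock-down of GPX3 was shared by its relatives. The 10 genes were taken by name from the 58735 genes of the table, and 8 of them passed the filter on low counts, as did 17023 genes in all. OVCAR3, an established line of human ovarian cancer cells, was cultured for 72 h with 1 of 3 hairpins. The scramble control (labelled WT in genotype) was set against hairpins number 76 and number 78 (both labelled GPX3 knock-down), called sh76 and sh78 here. Each group had 3 replicates, all cells were grown in serum and insulin, and poly-A RNA was sequenced. The labels do not say whether replicates came from separate cultures or transductions, so p-values measure only the spread between these libraries.

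Ligands of the TGF-beta superfamily are made as precursors, cut by proprotein convertases and secreted as dimers. Most bind pairs of type I and type II serine/threonine kinase receptors, which phosphorylate SMAD transcription factors: SMAD2 and SMAD3 for the TGF-betas, activins and GDF11, and SMAD1 and SMAD5 for bone morphogenetic proteins (BMPs). GDF15 is a distant member. It is induced by cellular stress, circulates at raised levels in many cancers, and signals through GFRAL, a receptor of the hindbrain that works with RET, not through the usual receptor pairs.

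Stretches before the start sites of 4 of these genes are shown first, to set the region before GDF15 beside those of its relatives. RefSeq windows of 250 bases before to 50 after the annotated start (GRCh38.p14) were at hand for 8 of the 10 genes. A TATA box (TATAAA on the gene's strand) lay within a 30-base stretch wholly before the start in 4 of them, GDF15, GDF11, TGFB2 and TGFB3. The capitals mark that box. INHBA also holds the letters, 11 bases before its start, and is not shown.
GDF15: aagtccggggacTATAAAggccggtccggc
GDF11: gggggccggggcTATAAAgggcctggcccg
TGFB2: tcagagagaactTATAAAtctcccctcccc
TGFB3: atgggagggaggTATAAAatttcagcagag
The GDF15 stretch is chr19:18386117-18386146 on the plus strand, and its box begins 29 bases before the start. The GDF11 stretch is chr12:55743077-55743106 on the plus strand, with the box at 33 bases. The TGFB2 stretch is chr1:218345295-218345324 on the plus strand, with the box at 29 bases. The TGFB3 stretch is chr14:75982008-75982037 on the minus strand, with the box at 30 bases. These starts are those of RefSeq, which differ from the starts of the counted gene spans given below. The GDF15 and TGFB3 stretches lie inside their counted spans, and those of GDF11 and TGFB2 lie before them. TATAAA was found somewhere in 7.33% of 35116 such windows. GDF15 had the box in common with GDF11, TGFB2 and TGFB3. Any part of the box in the levels reported below was not tested. TGATGNAA, written for the element that ATF4 binds with C/EBP partners, and TGACGTCA, the cAMP response element, were searched on both strands. They occurred in 3.62% and 1.85% of all windows and in no window of these 8 genes, which says only that these letters are not in these windows.

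Libraries held 14652965 to 21327562 counts, and mitochondrial genes took 4.24% to 5.16% of them. The targeted gene was read first as a check of the labels. GPX3, a secreted glutathione peroxidase, had 173, 109 and 117 CPM (counts scaled for library depth with TMM factors) in scramble replicates 1 to 3, 56.8, 55.2 and 55.5 CPM with sh76, and 35.3, 28.4 and 28.3 CPM with sh78. Every hairpin library lay below every scramble library, as in 4.82% of all genes tested. The edgeR log2 fold changes of GPX3 were −1.25 and −2.12 (adjusted p 0.00264 and 0.000125). All 10 markers of the ovarian carcinoma line were detected, with a summed level of 11441 to 12219 CPM with scramble, 10089 to 10771 with sh76 and 9330 to 9656 with sh78. Of these, edgeR called PAX8 lower with sh76, and EPCAM, KRT8 and KRT18 lower with sh78. Over all genes tested, 2.16% and 2.56% were called lower. The 5 fibroblast markers summed to 27.6 to 39.2 CPM with scramble, 30.6 to 54.6 with sh76 and 34.6 to 47.1 with sh78, and the 5 leukocyte markers to at most 3.18 CPM in any library. LUM was at 0 in all scramble and sh78 libraries, and CD3E and CD68 in all scramble and sh76 libraries. The 5 endothelial markers summed to 18.4 to 20.4 CPM with scramble, 18.9 to 24.4 with sh76 and 23.7 to 32.2 with sh78. Of these, 4 passed the filter, and edgeR called KDR higher with both hairpins, where 0.435% of all genes were. VWF, TEK and CDH5 were not called, and VWF and TEK had log2 fold changes below 0 with both hairpins. The part of these marker levels in the results below was not tested.

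GDF15 fell with both hairpins and was the 1 gene among the 10 to do so, where 0.881% of all genes tested were called lower with both. With the replicate number as a term in the fit, BMP7 was also called lower with both hairpins, as were 4.56% of all genes; its log2 fold changes there were −0.51 and −0.22. GDF15 (ENSG00000130513, chromosome 19, 18374731 to 18389176, plus strand, GRCh38) had 13.4, 14.2 and 13.1 CPM in scramble replicates 1 to 3. The sh76 libraries had 1.79, 4.56 and 4.44 CPM, and the sh78 libraries 1.18, 1.65 and 2.40 CPM. The scramble values sat within a narrow band, and the highest hairpin library lay far under the lowest of them. In 4.82% of all genes tested, every hairpin library lay below every scramble library. Counts behind the hairpin values of GDF15 were low, 29 to 94 with sh76 and 22 to 37 with sh78, against 209 to 242 with scramble. In bulk RNA, fewer cells that express a gene and less RNA per cell cannot be told apart.

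The edgeR log2 fold change of GDF15 was −1.89 for sh76 (95% interval −2.49 to −1.30, adjusted p 0.00264), so that 26.9% of the control level remained. For sh78 it was −2.97 (95% interval −3.64 to −2.31, adjusted p 0.000208), so that 12.7% remained. For the mean of both hairpins it was −2.43 (SE 0.23, adjusted p 0.000135 by edgeR). Ordered by fold change among the 17023 genes tested, GDF15 was the 21st from the lowest with sh76, the 11th with sh78 and the 8th for the mean. In same-numbered libraries the differences in log2 CPM were −2.83, −1.62 and −1.54 for sh76 and −3.38, −3.02 and −2.40 for sh78. Replicate 1 gave the largest fall with each hairpin, and scramble replicate 1 was also the library with the most GPX3. No other annotated gene with counts overlaps GDF15, so its value does not depend on how reads of overlapping genes were split.

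The hairpins were then set against each other for GPX3 and GDF15. GPX3 was lower with sh78 than with sh76 (log2 fold change −0.86, adjusted p 0.0194 by edgeR). GDF15 was lower by 1.08 on average (log2 fold change −1.08, 95% interval −1.79 to −0.37), which edgeR did not call (adjusted p 0.0997). A model with a term for the replicate number called it (−1.06, adjusted p 0.00334 by edgeR). Without sh76 replicate 1, whose 1.79 CPM lay inside the range of sh78, the difference was −1.38 and was also called. The other 8 fits that left out 1 library did not call it, nor did limma on log2(FPKM + 1).

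**Figure D1:**
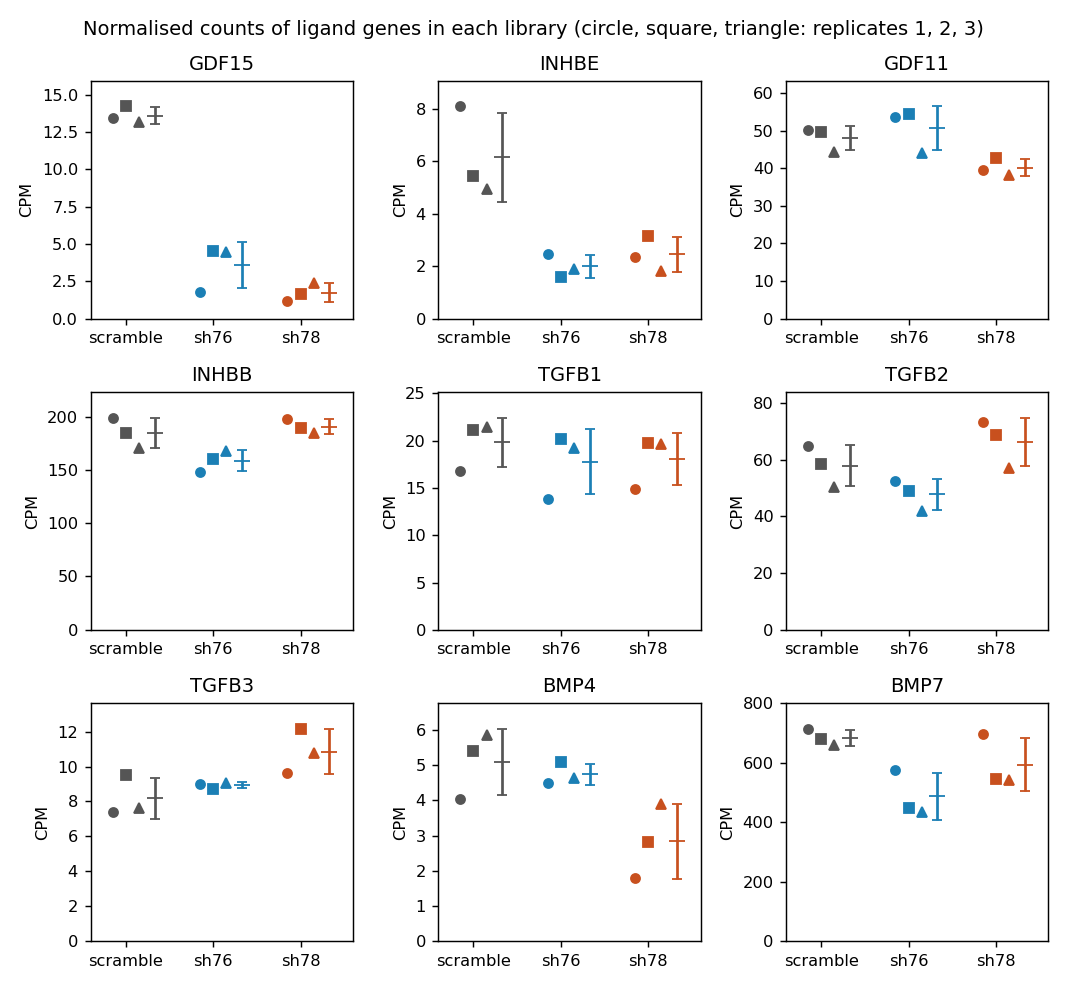
Level of each tested ligand gene and of INHBE in CPM (vertical axes, from 0) in every library, by group on the horizontal axis; circles, squares and triangles are replicates 1, 2 and 3, and bars are the mean and SD of 3 replicates. GDF15 and INHBE are the panels in which all 6 hairpin libraries lie below all 3 scramble libraries; the GDF15 libraries lie between 13.1 and 14.2 CPM with scramble and at or under 4.56 CPM with a hairpin.

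Among the 9 other ligands, 7 passed the filter. Few of them were called without the replicate number in the fit, and more were called with it. With sh76, edgeR called 1 of the 7, BMP7, lower, where 3.58% of all genes tested were called and 2.16% were called lower. With sh78 it called 0 of 7, where 4.41% were called (2.56% lower), and for the mean of both hairpins 0 of 7, where 4.04% were. At an unadjusted p under 0.05 there were 3, 3 and 2 of the 7. The share of all genes at that threshold was not counted, here or for the lists below. Such counts are therefore not read as an excess. The DESeq2 Wald test called 1 for sh76 (BMP7), 1 for sh78 (BMP4) and 1 for the mean (BMP7). With the replicate block 3, 5 and 2 of the 7 were called by edgeR, where 20.4%, 19.9% and 20.3% of all genes were. The median log2 fold change of the 7 was −0.15 with sh76 and −0.14 with sh78, beside 0.01 over all genes in both comparisons. Both comparisons share the scramble libraries. Between the hairpins 1 of the 7, TGFB2, was called, where 3.70% of all genes were. The replicate block called 5 there, where 18.3% of all genes were: TGFB2, INHBB and BMP7 higher and GDF11 and BMP4 lower with sh78 than with sh76. The 2 called for the mean with the block were BMP7 and BMP4, both lower.

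The 3 TGF-beta genes encode growth factors that are held latent in the matrix and act through SMAD2 and SMAD3. TGFB1 (chromosome 19, 41301587 to 41353911, minus strand) had 16.8, 21.2 and 21.5 CPM with scramble, 13.8, 20.2 and 19.3 with sh76, and 14.9, 19.7 and 19.6 with sh78. Its groups overlapped, and replicate 1 was the lowest of each. Its log2 fold changes were −0.15 (95% interval −0.50 to 0.19) and −0.14 (−0.48 to 0.21), not called by edgeR; the lower bounds lay above the upper bounds of GDF15, which were −1.30 and −2.31. The genes HNRNPUL1 and CCDC97 overlap TGFB1 on the opposite strand and had far more counts, and the libraries carry no strand.

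TGFB2 (chromosome 1, 218346235 to 218444619, plus strand) had 64.7, 58.4 and 50.3 CPM with scramble, 52.4, 48.8 and 41.8 with sh76, and 73.4, 68.6 and 56.8 with sh78. Each hairpin group overlapped scramble, while within every replicate number sh76 was the lowest and sh78 the highest. Its log2 fold changes against scramble were −0.28 (95% interval −0.53 to −0.03) and 0.20 (−0.05 to 0.45), not called by edgeR. With the replicate block both were called, in opposite directions (adjusted p 0.000268 and 0.00815 by edgeR). The direct difference between hairpins was called, with TGFB2 higher with sh78 than with sh76 by 0.48 (adjusted p 0.0383 by edgeR). Dropping single libraries ended that call in 5 of 9 fits (scramble replicate 2, sh76 replicates 2 and 3, and sh78 replicates 1 and 2), where the difference ran from 0.39 to 0.50. The call was also lost on log2(FPKM + 1) in limma.

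TGFB3 (chromosome 14, 75958099 to 75982991, minus strand) had 7.39, 9.51 and 7.64 CPM with scramble, 9.01, 8.72 and 9.07 with sh76, and 9.64, 12.2 and 10.8 with sh78. All sh78 libraries were above scramble, as were those of 10.2% of all genes tested. The log2 fold changes were 0.13 (95% interval −0.19 to 0.44) and 0.41 (0.09 to 0.72), neither called by edgeR, and the latter was called with the replicate block (adjusted p 0.0178 by edgeR). IFT43 overlaps TGFB3 on the opposite strand.

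The activin subunits come next. INHBB (chromosome 2, 120346143 to 120351808, plus strand) encodes the beta-B chain, which forms activin B or, with an alpha chain, inhibin B. It had 199, 184 and 170 CPM with scramble, 148, 160 and 168 with sh76, and 198, 189 and 184 with sh78. All sh76 libraries were below scramble, as were those of 11.7% of all genes, and the sh78 libraries were within its range. The log2 fold changes were −0.22 (95% interval −0.37 to −0.07) and 0.05 (−0.11 to 0.20), not called by edgeR, and the former was called with the replicate block (−0.21, adjusted p 0.00363 by edgeR). INHBA (chromosome 7, 41667168 to 41705834, minus strand), which encodes the beta-A chain, had 3, 2 and 1 counts with scramble, 1, 2 and 1 with sh76 and 1, 2 and 0 with sh78. INHBA did not pass the filter, so no fold change was computed. Its counts are at or under the 3 that a count of 0 allows by counting error.

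GDF11 (chromosome 12, 55743280 to 55757278, plus strand), a close relative of myostatin, had 50.3, 49.6 and 44.3 CPM with scramble, 53.6, 54.3 and 43.9 with sh76, and 39.6, 42.7 and 38.3 with sh78. Here the sh76 values spanned those of scramble and the sh78 values were all lower, as were those of 11.2% of all genes. Its log2 fold changes were 0.07 (95% interval −0.13 to 0.28) and −0.26 (−0.46 to −0.05), not called by edgeR. The second was called with the replicate block (adjusted p 0.00199 by edgeR). GDF11 shares part of its name with GDF15, but its lower interval bounds lay above the upper bounds of GDF15 with both hairpins.

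BMP7 (chromosome 20, 57168748 to 57266629, minus strand) encodes a bone morphogenetic protein known for its role in the kidney and skeleton. It had 714, 678 and 661 CPM with scramble, 575, 449 and 435 with sh76, and 695, 544 and 542 with sh78. Every sh76 library lay below scramble, as did those of 11.7% of all genes. With sh78, replicate 1 lay within the scramble range and replicates 2 and 3 below it. The log2 fold change with sh76 was −0.49 (95% interval −0.76 to −0.23, adjusted p 0.0477 by edgeR). Dropping single libraries ended this call in 7 of 9 fits, where the fold change ran from −0.52 to −0.42, and only those without sh76 replicate 1 or sh78 replicate 1 kept it. It was also lost on log2(FPKM + 1) in limma (adjusted p 0.109). With sh78 the log2 fold change was −0.21 (95% interval −0.47 to 0.06), called with the replicate block (−0.22, adjusted p 0.0011 by edgeR). All 6 differences between same-numbered libraries were below 0, from −0.61 to −0.04 in log2 CPM.

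BMP4 (chromosome 14, 53949736 to 53958761, minus strand) encodes a ligand of early mesoderm and of many epithelia. It had 4.05, 5.40 and 5.86 CPM with scramble, 4.50, 5.09 and 4.63 with sh76, and 1.78, 2.82 and 3.90 with sh78. All sh78 libraries were below all scramble libraries, as were those of 11.2% of all genes. The sh76 libraries lay within the scramble range. The log2 fold change was −0.11 (95% interval −0.62 to 0.40) with sh76. With sh78 it was −0.87 (95% interval −1.41 to −0.32, adjusted p 0.0748 by edgeR), which the replicate block called (adjusted p 0.000928 by edgeR). It was also called without scramble replicate 1 and without sh78 replicate 3. The difference between the hairpins was −0.76 (edgeR gave an adjusted p 0.128, and 0.0038 with the replicate block). For BMP4, 33 to 105 counts per library limited the precision. BMP2 (chromosome 20, 6767664 to 6780280, plus strand), its closest relative, had 1 count in sh76 replicate 1 and 0 in the other libraries, and a count of 0 allows up to 3.

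**Figure D2:**
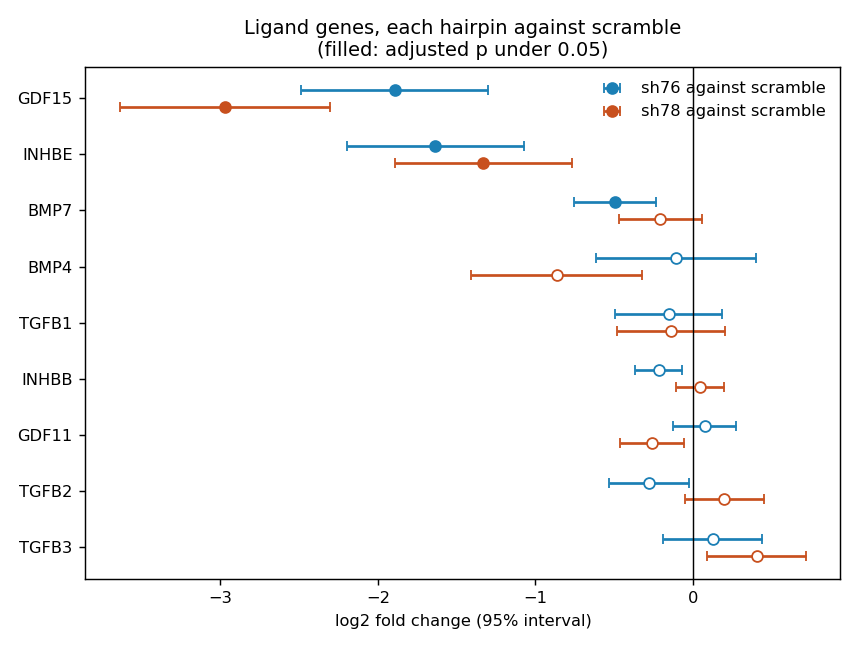
log2 fold change against scramble (horizontal axis) with its 95% interval for each tested ligand gene and INHBE; blue is sh76, orange is sh78, and filled points had an edgeR adjusted p under 0.05. GDF15 and INHBE are called with both hairpins, BMP7 with sh76 alone, and the other points are open.

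To set the change of GDF15 beside that of each ligand, the log2 ratio of GDF15 to each ligand was taken within each library (log2 CPM, prior count 2). Against TGFB1, the ligand nearest to it in level, the ratio was −0.32, −0.57 and −0.70 with scramble, −2.87, −2.12 and −2.09 with sh76, and −3.53, −3.49 and −2.97 with sh78. Against BMP7, the ligand called lower with sh76, it was −5.72, −5.57 and −5.64 with scramble, −8.24, −6.59 and −6.58 with sh76, and −9.06, −8.27 and −7.75 with sh78. In both, no hairpin library reached the scramble range.

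The mean ratio over the 6 hairpin libraries was below that over the 3 scramble libraries for each ligand. The differences in log2 ratio were −2.74 for TGFB3, −2.42 for TGFB2, −2.38 for INHBB, −2.37 for GDF11, −2.31 for TGFB1, −2.10 for BMP7 and −1.98 for BMP4. For all 7 ligands, the 6 hairpin libraries were below the 3 scramble libraries. Each gave a two-sided exact permutation p of 0.0238 (6 hairpin against 3 scramble libraries), the smallest that 84 assignments can give, and Benjamini-Hochberg adjustment over the 7 ratios left it at 0.0238. The 7 ratios share the values of GDF15, which was chosen with its fall known, so they are not 7 independent results. GDF15 lay well below scramble in every hairpin library and the 7 ligands changed less, so the smallest p could be foreseen. It is no separate evidence that the fall is particular to GDF15, and the 6 libraries pool both hairpins. With assignments exchanged only within replicate numbers, the differences are the same by construction and the exact permutation p was 0.0741, the smallest that 27 assignments allow. With each hairpin alone, 3 libraries against 3 cannot go below an exact p of 0.1. The differences for sh76 alone ran from −2.13 (TGFB3) to −1.49 (BMP7), and for sh78 alone from −3.34 (TGFB3) to −2.06 (BMP4).

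**Figure D3:**
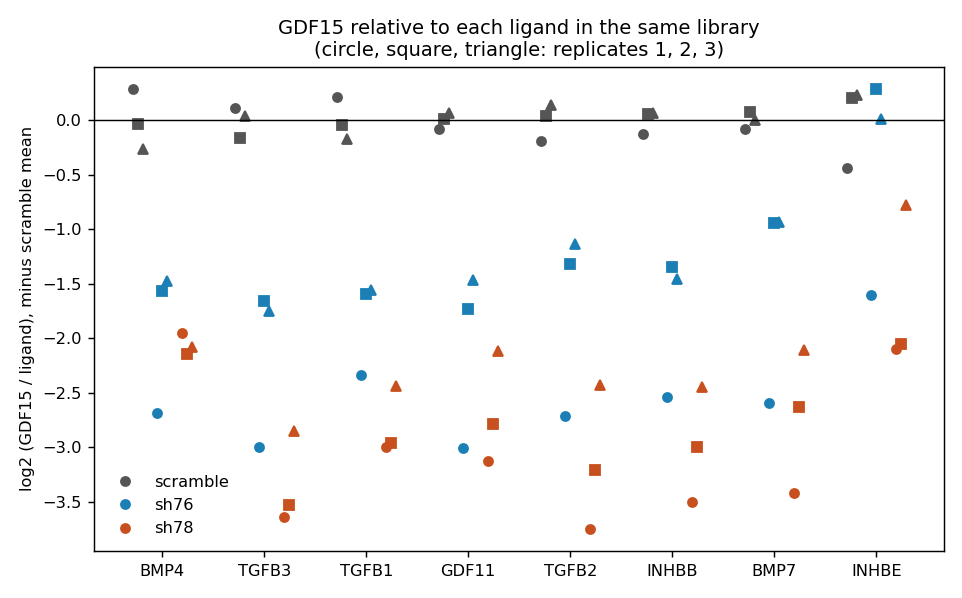
log2 ratio of GDF15 to each ligand within a library, minus the scramble mean of that ratio (vertical axis); grey is scramble, blue sh76 and orange sh78, with circles, squares and triangles for replicates 1, 2 and 3. For the 7 tested ligands every hairpin library lies below every scramble library; for INHBE 2 of the 6 do not.

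Per length of transcript, the ligands differed in level by a wide margin, and the fall moved GDF15 down their order. In mean FPKM (fragments scaled for transcript length and library size, as deposited) with scramble, BMP7 stood highest at 126 ± 4.56 (SD, n = 3), followed by INHBB at 57.3 ± 4.22 and TGFB2 at 11.2 ± 1.35. GDF15 at 6.48 ± 0.237, TGFB1 at 6.09 ± 0.822 and GDF11 at 5.52 ± 0.354 came next and did not separate from their neighbours, GDF15 from TGFB1 and TGFB1 from GDF11. TGFB3 at 1.65 ± 0.230 and BMP4 at 1.65 ± 0.308 overlapped, and INHBA and BMP2 were close to 0.

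With sh76, GDF15 was 7th of the 10 at 1.71 ± 0.742 FPKM, between TGFB3 at 1.80 ± 0.0404 and BMP4 at 1.52 ± 0.0967, and overlapped both. With sh78 it was 8th at 0.831 ± 0.293 FPKM, next to BMP4 at 0.913 ± 0.342, whose values it overlapped. The order of the others was the same with sh76 as with scramble except that GDF11 and TGFB1, which overlapped, changed places. Summed over 33 ligands of the superfamily, FPKM was 227 ± 9.22 with scramble, 173 ± 9.99 with sh76 and 206 ± 17.2 with sh78. GDF15 made up 2.85% ± 0.138 of that sum with scramble, 1.00% ± 0.471 with sh76 and 0.412% ± 0.170 with sh78. BMP7 made up 55.2% ± 0.670, 51.2% ± 5.07 and 52.7% ± 3.24. By library, BMP7 took 54.6% to 55.9% with scramble, 48.2% to 57.1% with sh76 and 50.5% to 56.4% with sh78, and was the ligand with the most FPKM in each group.

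The other 23 ligands of the superfamily were then read, to see whether any moved with GDF15. Of these, 9 passed the filter, and 1 was called with each hairpin, where 3.58% and 4.41% of all genes tested were. It was INHBE, which encodes the activin beta-E chain, a product of the liver known to respond to stress of the endoplasmic reticulum. INHBE (chromosome 12, 57452323 to 57459280, plus strand) had 8.10, 5.46 and 4.94 CPM with scramble, 2.47, 1.60 and 1.91 with sh76, and 2.37, 3.16 and 1.82 with sh78. All 6 hairpin libraries were below all 3 scramble libraries, as were those of 4.82% of all genes tested, and counts were 86 to 126 with scramble and 28 to 46 with a hairpin. Its log2 fold changes were −1.64 (SE 0.26, adjusted p 0.00349 by edgeR) and −1.33 (SE 0.26, adjusted p 0.00899 by edgeR). The sh78 call was lost without sh78 replicate 3 (−1.16, adjusted p 0.0525 by edgeR) and on log2(FPKM + 1) in limma (−0.74, adjusted p 0.0578). Adding the block called INHBE with both again, and BMP5 with sh78 as well. So 1 and 2 of the 9 were called, where 20.4% and 19.9% of all genes were.

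The ratio of GDF15 to INHBE was compared after the fall of INHBE was seen. It was 0.72, 1.36 and 1.39 with scramble, −0.44, 1.45 and 1.17 with sh76, while sh78 gave −0.93, −0.89 and 0.38. The sh76 values spanned those with scramble, and those with sh78 lay below them. The difference over both hairpins was −1.04, with 4 of 6 hairpin libraries below all scramble libraries (two-sided exact permutation p 0.167, 6 against 3 libraries). On log2(FPKM + 1) the difference was −0.97 and its exact permutation p 0.0476. Of the ligands tested, INHBE had the fold change nearest to that of GDF15 with sh76 and for the mean of both hairpins, but not with sh78, where BMP5 was nearer. The test on CPM did not separate the changes of GDF15 and INHBE, which does not show that they changed alike. BMP5 had a log2 fold change of −0.30 with sh76 and −1.83 with sh78, and was not called by edgeR (adjusted p 0.108 with sh78, and 0.00721 there with the replicate block), at 0.108 to 1.47 CPM over all libraries.

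Receptors and SMADs were read next. Of 14 receptors and co-receptors, 11 passed the filter. TGFBR3 (betaglycan, a co-receptor that presents TGF-beta2) was the 1 called by edgeR with sh76 (log2 fold change −0.50, adjusted p 0.0308), and 0 were called with sh78, where 3 had an unadjusted p under 0.05. Of all genes, 3.58% and 4.41% were called. The replicate block called 3 and 5 of the 11, and 20.4% and 19.9% of all genes. TGFBR2, the type II receptor of TGF-beta, had log2 fold changes of −0.10 and −0.25, and ACVR1B, a type I receptor of activins, −0.13 and −0.25. With the replicate block both were called with sh78 (adjusted p 0.00045 and 0.000663 by edgeR). The receptor of GDF15 was close to undetected, with 0 to 3 counts of GFRAL and 0 to 7 counts of RET in a library.

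All 8 SMADs passed the filter, and edgeR called 0 with either hairpin, where it called 3.58% and 4.41% of all genes. At an unadjusted p under 0.05 there were 0 with sh76 and 2 with sh78, and the replicate block called 1 and 2, where it called 20.4% and 19.9% of all genes. SMAD3 had log2 fold changes of 0.06 and 0.25, the latter called with the replicate block (adjusted p 0.000127 by edgeR). SMAD6, which inhibits BMP signalling, had −0.12 and 0.07. The median log2 fold change of the 8 was −0.04 with sh76 and 0.09 with sh78.

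Of 16 secreted antagonists, 9 passed the filter, and edgeR called 0 with either hairpin, where it called 3.58% and 4.41% of all genes. At an unadjusted p under 0.05 there were 3 and 4. The replicate block called 5 with each, where it called 20.4% and 19.9% of all genes. Follistatin (FST), which binds activins, GDF11 and some BMPs, stood at 118, 116 and 133 FPKM in the 3 groups, with log2 fold changes of −0.02 and 0.17. NBL1, a BMP antagonist, stood at 39.7, 54.2 and 63.5 FPKM, with log2 fold changes of 0.46 and 0.68 (adjusted p 0.247 and 0.0913 by edgeR), both called with the replicate block (adjusted p 1.86e-06 and 1.61e-09 by edgeR).

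All 12 genes for latency, activation and processing of the ligands passed the filter. ITGB6, the beta chain of an integrin that frees TGF-beta from its latent complex, rose with both hairpins. It had 17.6, 16.0 and 17.6 CPM with scramble, 31.8, 33.9 and 34.9 with sh76, and 23.7, 28.9 and 29.4 with sh78, and its log2 fold changes were 0.98 and 0.68 (adjusted p 0.000192 and 0.00216 by edgeR). The groups did not overlap, and in 3.57% of all genes all 6 hairpin libraries were above all scramble libraries; 0.435% of all genes were called higher with both hairpins. With sh76, THBS1, a matrix protein that also activates latent TGF-beta, rose (0.64, adjusted p 0.0034 by edgeR). With sh78, LTBP3, which binds the latent complex, rose (0.34, adjusted p 0.00466 by edgeR) and ITGB8, another integrin chain of that kind, fell (−0.37, adjusted p 0.0309 by edgeR). So 2 of 12 were higher and 0 lower with sh76, where 1.43% of all genes were called higher, and 2 higher and 1 lower with sh78, where 1.85% were called higher. The replicate block called 5 and 7 of the 12, where it called 20.4% and 19.9% of all genes. TGFBR3, THBS1, LTBP3 and ITGB8 were named after their values were seen, as were BMP5 above and PMEPA1, ID1 and EGR1 in what follows.

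Target genes of the pathway were counted without being read as activity. Of 11 targets of SMAD2 and SMAD3, 1 was called higher with sh76 (ITGB6, which both lists hold) and 2 with sh78 (ITGB6 and PMEPA1, an inhibitor of the pathway), and 0 were lower, where 3.58% and 4.41% of all genes were called. Of 11 targets of SMAD1 and SMAD5, 10 passed the filter, and members moved in both directions. ID2 and HEY1, both repressors of transcription, fell with both hairpins, with log2 fold changes of −0.62 and −0.51 for ID2 (adjusted p 0.00421 and 0.0112 by edgeR) and −0.52 and −0.72 for HEY1 (adjusted p 0.0488 and 0.00805 by edgeR). For HEY1 with sh76, dropping single libraries ended the call in 7 of 9 fits, all but those without scramble replicate 1 or sh76 replicate 1. On log2(FPKM + 1) in limma, HEY1 was called with neither hairpin (adjusted p 0.129 and 0.0503). ID3, of the same family as ID2, rose with both (0.41 and 0.36, adjusted p 0.00748 and 0.0125 by edgeR), and ID1 fell with sh78 (−0.31, adjusted p 0.0366 by edgeR). Of all genes, 0.881% were called lower with both hairpins, 0.435% higher with both and 2.56% lower with sh78. The ID2 and ID3 calls with sh78 were each lost in 2 such fits, both without sh78 replicate 2 and, in turn, without scramble replicate 3 and scramble replicate 2. With the replicate block, 3 and 6 of the SMAD2 and SMAD3 targets and 3 and 7 of the SMAD1 and SMAD5 targets were called, where 20.4% and 19.9% of all genes were. The median log2 fold change of these 10 was −0.12 with sh76 and −0.13 with sh78.

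**Figure D4:**
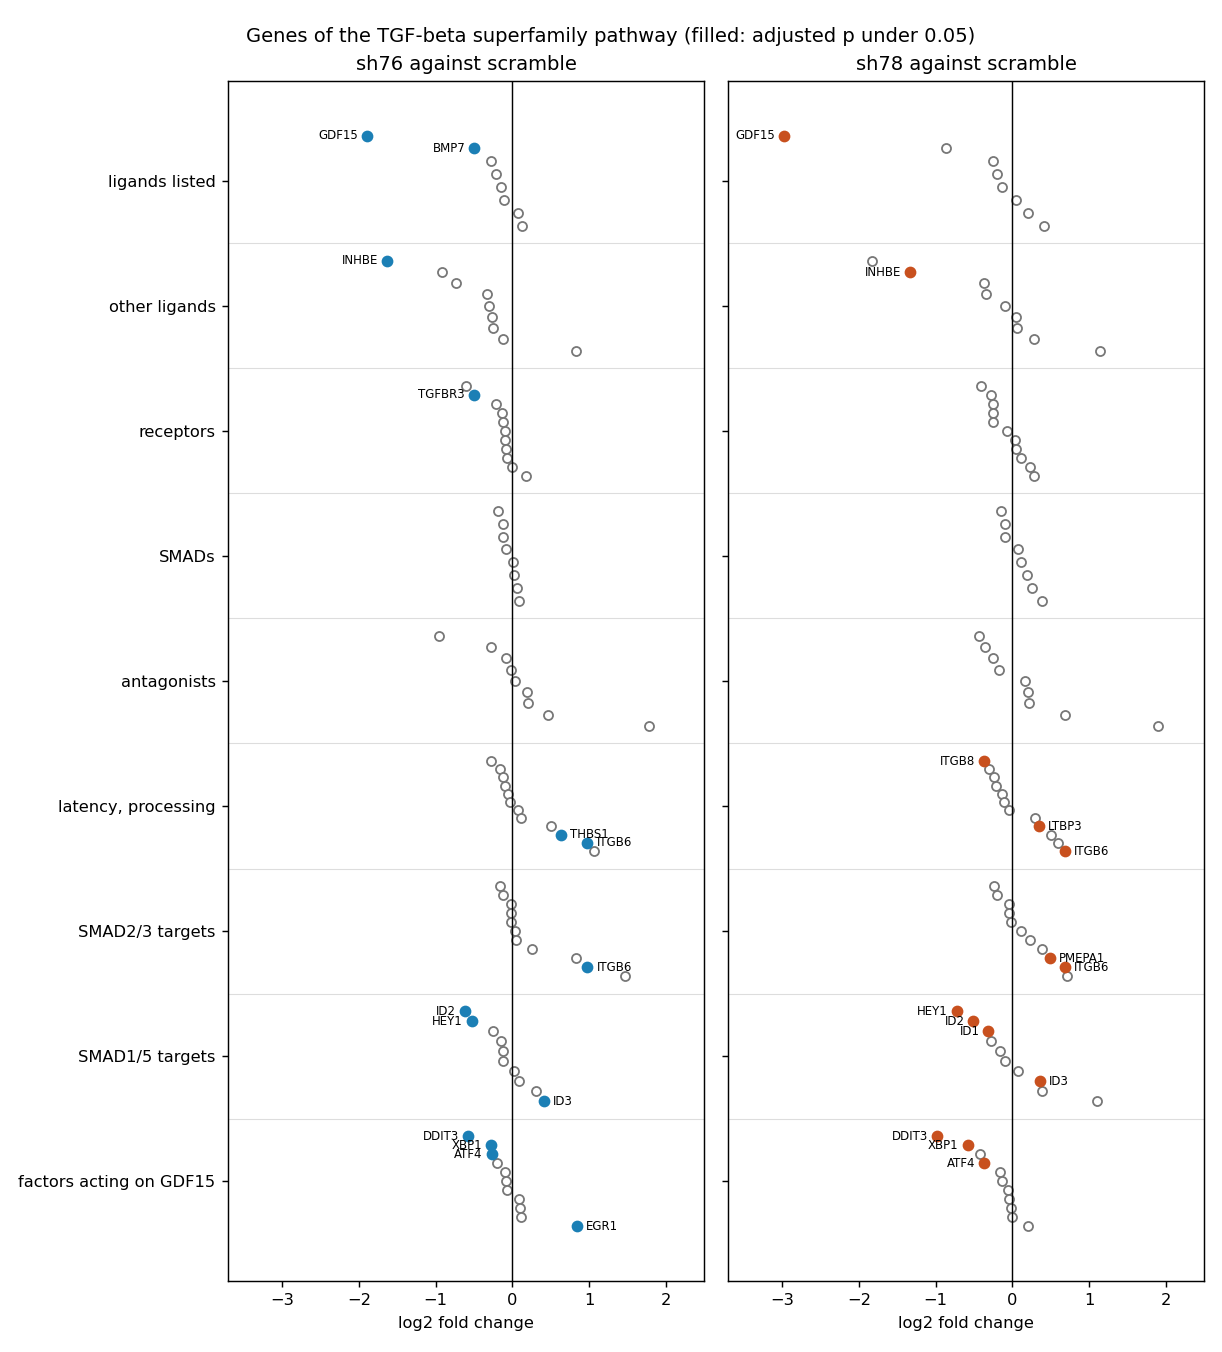
log2 fold change against scramble (horizontal axis) of every tested gene in 9 lists of the pathway (rows; genes within a row are in order of fold change), sh76 on the left and sh78 on the right; filled and named points had an edgeR adjusted p under 0.05. GDF15 and INHBE lie farthest to the left of the filled points in both panels, and the called genes of the other rows lie between −0.98 and 0.98.

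Factors known to act on the transcription of GDF15 made up the last list. All 11 passed the filter, and 3 were called lower with both hairpins, where 0.881% of all genes were: ATF4, the main transcription factor of the integrated stress response, its target DDIT3 (CHOP), and XBP1, a factor of the unfolded protein response. ATF4 had 318, 315 and 326 CPM with scramble, 257, 258 and 279 with sh76, and 248, 241 and 253 with sh78, and log2 fold changes of −0.27 and −0.37 (adjusted p 0.0161 and 0.00189 by edgeR). DDIT3 had 13.8, 15.8 and 13.3 CPM, then 8.94, 10.6 and 9.26, then 7.65, 8.25 and 5.78, and log2 fold changes of −0.57 and −0.98 (adjusted p 0.0477 and 0.00211 by edgeR). XBP1 had 376, 394 and 347 CPM, then 322, 312 and 288, then 252, 248 and 245, and log2 fold changes of −0.28 and −0.58 (adjusted p 0.0256 and 0.000198 by edgeR). For each of the 3, the hairpin libraries were all below the scramble libraries, as were those of 4.82% of all genes tested. The fold change of each was smaller in size than that of GDF15.

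The sh76 calls of these factors changed with single libraries. Dropping single libraries ended that of DDIT3 in 7 of 9 fits, all but those without sh78 replicate 1 or 3. That of XBP1 was lost in 4, without scramble replicate 1 or 2 or sh76 replicate 2 or 3, and that of ATF4 in 2, without sh76 replicate 1 or 2. The fold changes in those fits ran from −0.65 to −0.50 for DDIT3. The sh76 calls of DDIT3 and XBP1 were also lost on log2(FPKM + 1) in limma (adjusted p 0.0933 and 0.0726). MARS and MBD6 overlap DDIT3 on the opposite strand, with more counts. EGR1, an early-response factor, was called higher with sh76 (0.84, adjusted p 0.00417 by edgeR) and had a log2 fold change of −0.00 with sh78. Adding the block called 4 and 6 of the 11 factors, where 20.4% and 19.9% of all genes were called. The list was chosen with the fall of such genes in these data known, and its counts are no independent evidence of a direction.

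The genes beside GDF15 on chromosome 19 were read to see whether the fall extended along the chromosome. Of the genes within 100 kb, 6 others passed the filter. PGPEP1 was the nearest of them, with 4781 bases between the counted gene spans. It had 34.7, 29.3 and 29.5 CPM with scramble, 32.0, 33.8 and 33.4 with sh76, and 37.0, 30.6 and 33.1 with sh78. Its groups overlapped, and its log2 fold changes were 0.09 and 0.11. ISYNA1, which encodes inositol-3-phosphate synthase and lies 45212 bases away, fell with sh76 (−0.74, adjusted p 0.000989 by edgeR) and had −0.34 with sh78 (edgeR gave an adjusted p 0.0668, and 1.39e-05 with the replicate block). SSBP4, LSM4, JUND and ELL had log2 fold changes between −0.20 and 0.29, not called by edgeR. The block called LSM4 with both hairpins and JUND with sh78. It called 20.4% and 19.9% of all genes with sh76 and sh78, and 4.56% lower with both. Without the block, 2.16% of all genes were called lower with sh76. ISYNA1 and SSBP4 overlap each other on opposite strands.

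Across the 9 libraries, the protein-coding genes whose log2 CPM followed GDF15 most closely were PLA2G12A (Pearson r 0.983), ZNF750 (0.977), RCN1 (0.973), CALCB (0.964), EIF2S2 (0.963), MYOF (0.960), STARD10 (0.960), KIF13A (0.960), SLC7A5 (0.958) and GLUD1 (0.957). They were the 10 highest of 11264 candidates, and the points share their groups, so these values are a description. Of the ligands for which r is given here, none came near. The r with GDF15 was 0.72 for BMP4, 0.70 for INHBE, 0.53 for TGFB1, 0.39 for GDF11, 0.30 for BMP7, 0.08 for INHBB, −0.29 for TGFB2 and −0.68 for TGFB3. No r is given for the remaining ligands of the superfamily, BMP5 among them.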

How the data were processed

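Poly-A RNA from 9 libraries of OVCAR3 cells (3 per group) was sequenced from non-directional libraries, per the labels' protocols. The submitters' processing notes name HISAT2 2.0.5, featureCounts 1.5.0-p3 and hg38, without settings. The authors deposited counts per gene and FPKM values. Gene identifiers, starts and ends matched GENCODE release 29 for 58735 of 58735 genes.

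The count tests used edgeR 4.0.16 (R 4.3.3): filterByExpr (minimum count 10, minimum total 15), TMM scaling, robust quasi-likelihood F tests, 1 coefficient per group over all 9 libraries, and Benjamini-Hochberg adjustment over 17023 genes with calls at 0.05. FPKM was used for levels between genes and, as log2(FPKM + 1), in limma 3.58.1 as an alternative. Other alternatives were DESeq2 1.42.0, its size factors, no low-count filter, the replicate block and each library left out. No 2 replicates of a group agreed within sampling noise (chi-square per degree of freedom 5.32 to 12.2). All 9 same-numbered pairs from different groups deviated together across genes (r 0.14 to 0.39, against −0.31 to 0.06 in 18 others), so the replicate numbers were taken to pair the libraries, from the data and not from a statement in the labels. On simulated data edgeR recovered 91% of genes changed by 2 on the log2 scale and 70% of those changed by 1 for sh76, and 95% and 64% for sh78, among 16528 genes, with 7.5% and 8.1% of calls false.

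Genes were named by rule: the 10 ligands, GPX3, list genes called with the same sign with both hairpins or otherwise the 2 of highest mean FPKM, tested genes within 100 kb of GDF15, and the 10 genes closest to it in pattern. Members and lists were chosen with earlier results of these data known. Promoter sequences are from RefSeq.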

Additional observations from a re-analysis of the deposited data

Results flagged for a closer look

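A direct edgeR test of sh78 against sh76 called 11 of the 90 tested genes looked at here, where it called 3.70% of all genes, among them 1 of the ligands, TGFB2 (log2 fold change 0.48). Those higher with sh78 than with sh76 were LTBP3 (0.43), PMEPA1 (0.46), TGFBR1 (0.33) and ISYNA1 (0.40). Those lower were GPX3 (−0.86), EGR1 (−0.85), ITGB8 (−0.49), ID1 (−0.33), XBP1 (−0.31) and HIF1A (−0.26). The edgeR adjusted p-values lay between 0.00113 (LTBP3) and 0.0452 (PMEPA1), and all 11 were also called with the replicate block, which called 18.3% of all genes. Against scramble, the fold changes of TGFB2, TGFBR1, LTBP3, ITGB8, ID1, EGR1 and HIF1A had opposite signs with the 2 hairpins. Without the replicate block, edgeR called none of these genes with both hairpins, and TGFB2, TGFBR1 and HIF1A with neither. Some of the log2 fold changes were near 0: −0.002 for EGR1 with sh78, and 0.02 for ID1 and −0.09 for LTBP3 with sh76. The fold changes of GPX3, XBP1 and ISYNA1 were below 0 with both hairpins, and that of PMEPA1 was above 0 with both.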

How the results depend on the processing

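GDF15 was called lower with each hairpin and for their mean under every alternative run, with log2 fold changes from −2.09 to −1.51 for sh76, −3.27 to −2.04 for sh78 and −2.59 to −1.77 for the mean; log2(FPKM + 1) gave the smallest. The GDF15 difference between hairpins became called with DESeq2 (−1.06, adjusted p 0.0236), without the low-count filter (−1.08, adjusted p 0.00036) and with the replicate block (−1.06). It was not called with the DESeq2 size factors in edgeR or on log2(FPKM + 1). With 1 library left out it ran from −1.38 to −0.84 and was not called in 8 of 9 fits. Of the 9 other ligands, the number called with sh76 was 0 on log2(FPKM + 1) and 3 with the block; with sh78 it was 1 with DESeq2, 1 without the filter and 5 with the block; for the mean it was 1, 1 and 2. With 1 library left out each was 0 to 1. The cause was not tested.

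The replicate block of the ratio test limits only which libraries are exchanged, so it cannot change the differences. These were GDF11 −2.37, INHBB −2.38, TGFB1 −2.31, TGFB2 −2.42, TGFB3 −2.74, BMP4 −1.98 and BMP7 −2.10. Only the smallest possible p rose, to 0.0741 (exact permutation). Leaving out 1 library gave −2.55 to −2.22, −2.59 to −2.16, −2.46 to −2.18, −2.68 to −2.16, −2.95 to −2.55, −2.11 to −1.84 and −2.34 to −1.84 in that order, with an exact p of at least 0.0714 where a scramble library was left out. The block changed no call of the 10 ligands other than those given beside them. Over all genes, edgeR called 610, 750 and 687 (sh76, sh78, mean); without the filter 1149, 1212 and 1181, with the block 3467, 3388 and 3462, and limma on log2(FPKM + 1) 224, 301 and 255. With 22 to 94 counts in a hairpin library, depth limits how closely the size of the GDF15 fall is known.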
